A study of Mus musculus with 5 samples.

Results

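Oncostatin M, interleukin-6 and leukemia inhibitory factor signal through receptors that share the gp130 chain, and 10 genes of this system were followed in reperfused mouse hearts: the ligand genes Osm, Il6 and Lif, the receptor genes Osmr, Il6ra, Il6st and Lifr, the transcription factor gene Stat3, its feedback inhibitor Socs3 and the acute-phase target Serpina3n. They were chosen by symbol, with the difference between the groups already known, so their differences are given as a description without a test. All 10 had a probe with that gene symbol alone among 22180 genes of the array, and all 10 passed the filter on low values, which left 15294 genes. Where a gene had more than 1 probe, the probe with the highest mean over the arrays was used, which concerned only Socs3 among the 10.

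Hearts came from wildtype C57Bl6J mice at zeitgeber time 12 (hours after lights on). Each heart was perfused outside the body on a Langendorff apparatus for 20 min of stabilisation, 20 min without flow and 20 min of reperfusion. The treated mice (n = 3 hearts) had received an antagonist of REV-ERB alpha, the clock repressor encoded by Nr1d1, by intraperitoneal injection 4 h and 1 h ahead of the procedure, at 10 µM according to the labels. The sham mice (n = 2 hearts) had the same perfusion with no antagonist. The labels name no compound, vehicle, sex or age. Both groups carry the effect of ischemia and reperfusion, and unperfused hearts were not analysed here.

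In this receptor family a ligand brings gp130, encoded by Il6st, together with a partner chain: the oncostatin M receptor for oncostatin M, the LIF receptor for leukemia inhibitory factor, and the ligand-binding interleukin-6 receptor for interleukin-6. Janus kinases bound to the chains then phosphorylate STAT3, which enters the nucleus and switches on acute-phase genes together with SOCS3, a protein that blocks further signalling at gp130. In the heart the pathway is known for protecting muscle cells under acute stress, and long exposure to oncostatin M is known to make heart muscle cells lose their differentiated structure. Oncostatin M itself is made mainly by myeloid cells, while its receptor is carried by heart muscle cells, fibroblasts and endothelial cells.

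The promoter sequences of 4 of these genes are shown because their levels stood furthest apart between the groups (Osmr and Serpina3n), because 1 array alone set the level (Il6), or because the gene is the feedback target of STAT3 (Socs3). They are RefSeq sequences of build GRCm38.p6, from 250 bases before the annotated start to 50 bases after it, read 5′ to 3′ on the strand of the gene. Capitals mark matches, on either strand, to 5 motifs: TTCNNNGAA for STAT, GGNNTTTCC for NF-kB, TTGCNNAA for C/EBP, TGANTCA for AP-1 and AGGTCA for the half-site of REV-ERB and ROR receptors.
Osmr, chr15:6874264-6874563, minus strand: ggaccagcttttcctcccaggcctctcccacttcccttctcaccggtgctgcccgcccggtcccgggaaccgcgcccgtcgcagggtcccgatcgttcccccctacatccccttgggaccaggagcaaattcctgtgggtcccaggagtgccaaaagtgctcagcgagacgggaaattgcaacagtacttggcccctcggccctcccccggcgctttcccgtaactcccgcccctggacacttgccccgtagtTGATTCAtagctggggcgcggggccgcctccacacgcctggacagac
Serpina3n, chr12:104406458-104406757, plus strand: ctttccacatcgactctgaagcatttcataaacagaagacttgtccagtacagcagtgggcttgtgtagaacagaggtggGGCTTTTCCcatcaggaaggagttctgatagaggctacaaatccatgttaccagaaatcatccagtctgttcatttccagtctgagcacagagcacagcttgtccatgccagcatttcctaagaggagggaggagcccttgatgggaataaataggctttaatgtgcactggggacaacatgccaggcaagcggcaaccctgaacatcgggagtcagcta
Il6, chr5:30012864-30013163, plus strand: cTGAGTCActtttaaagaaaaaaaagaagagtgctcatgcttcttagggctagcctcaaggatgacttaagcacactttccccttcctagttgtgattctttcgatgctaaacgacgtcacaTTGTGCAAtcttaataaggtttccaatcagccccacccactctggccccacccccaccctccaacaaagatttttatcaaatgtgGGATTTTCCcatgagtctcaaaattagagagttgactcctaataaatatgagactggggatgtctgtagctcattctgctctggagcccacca
Socs3, chr11:117969317-117969616, minus strand: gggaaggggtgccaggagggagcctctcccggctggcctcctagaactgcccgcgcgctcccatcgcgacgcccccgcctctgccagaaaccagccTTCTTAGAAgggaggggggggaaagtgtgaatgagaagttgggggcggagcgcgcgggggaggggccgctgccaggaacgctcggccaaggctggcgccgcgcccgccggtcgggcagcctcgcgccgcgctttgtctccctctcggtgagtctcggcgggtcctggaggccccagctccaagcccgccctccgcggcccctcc

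Socs3 held 1 match to the STAT motif, TTCTTAGAA, at position -154, counted from the start as position 1 with no position 0. It was the only one among the 10 promoter windows of 9 members in the sequence table (Lifr had 2 windows), while 8.3% of 32851 promoter windows of the same length held the motif. Serpina3n held 1 match to the NF-kB motif, GGCTTTTCC at -170, and Il6 held 1, GGATTTTCC at -43. Of all windows 5.82% held this motif. Il6 also held a C/EBP match, TTGTGCAA on the minus strand, and an AP-1 match, TGAGTCA, at positions -128 and -249; the C/EBP motif was found in 10.8% of all windows. Osmr held 1 match, TGATTCA for AP-1, at position 4, and Lif held another AP-1 match, TGACTCA, at -228; the AP-1 motif was found in 7.81% of all windows. The REV-ERB and ROR half-site occurred once, in the first window of Lifr (TGACCT, minus strand, -247), and in 16.3% of all windows. No 2 of these matches overlapped. A match describes letters only and says nothing of binding in these hearts.

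Osmr and Serpina3n were the members with the widest gap between the groups. Osmr (Entrez Gene 18414), the signalling chain that recognises oncostatin M, had log2 values of 7.68 and 7.34 on the sham arrays and 8.34, 8.36 and 8.12 on the antagonist arrays. Every antagonist heart lay above both sham hearts, with a gap of 0.45 between the nearest arrays. The means were 7.51 ± 0.24 (SD, n = 2) and 8.28 ± 0.13 (SD, n = 3), a log2 difference of 0.77 ± 0.14 (SE) or 1.70-fold. This gap was larger than the spread within either group, and the difference stood 34th from the top among the 15294 genes.

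Serpina3n (Entrez Gene 20716), which encodes a secreted serine protease inhibitor of the acute-phase response, measured 7.13 and 6.83 in sham and 8.05, 8.17 and 7.79 with the antagonist. The 2 groups lay 0.66 apart at their nearest arrays. The means of 6.98 ± 0.22 (SD, n = 2) and 8.01 ± 0.19 (SD, n = 3) differed by 1.02 ± 0.17 (SE) on the log2 scale, or 2.03-fold, the 15th difference from the top. The arrays ran in the same order for both genes: sham replicate 2 was lowest, followed by sham replicate 1 and antagonist replicates 3, 1 and 2. Serpina3n belongs to a cluster of related genes, of which 4 others (Serpina3a, Serpina3b, Serpina3i and Serpina3j) had a probe of their own. All 4 lay below the level filter of 3.42. The other 6 listed members of the cluster had no probe with their symbol alone, so a share of their RNA in the Serpina3n value was not tested.

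**Figure D1:**
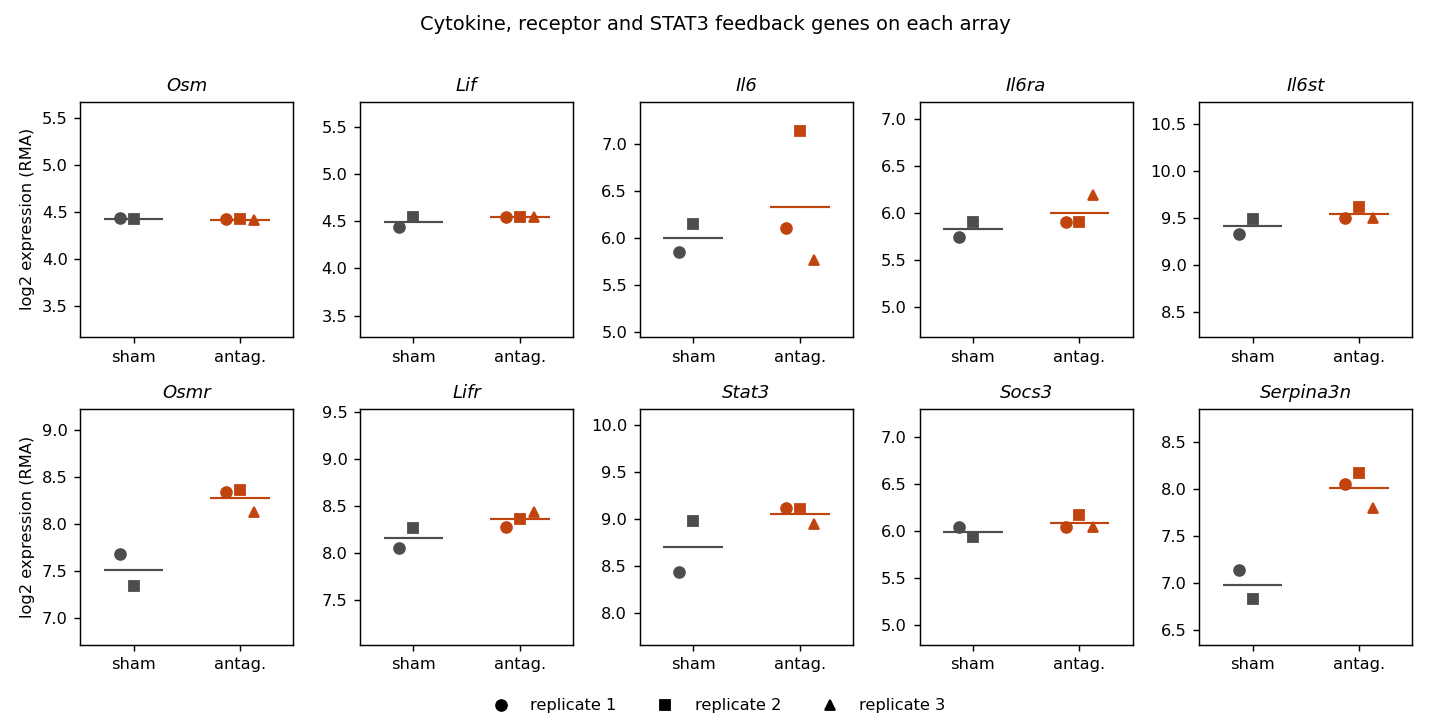
Log2 expression (RMA) of the 10 genes on each array, with grey symbols for sham, orange symbols for antagonist, marker shapes for replicates and horizontal lines for group means. Every panel spans 2.5 log2 units. Osmr and Serpina3n show a clear gap between the groups, and Il6 is high on antagonist replicate 2 alone.

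None of the ligand genes Osm, Lif and Il6 had its groups apart. Osm (Entrez Gene 18413) was nearly constant, with 4.43 and 4.42 in sham and 4.42, 4.42 and 4.41 with the antagonist. Its log2 difference was -0.0078 ± 0.0115 (SE), and it was the only member with a lower mean in the antagonist hearts. Lif (Entrez Gene 16878) gave 4.44 and 4.54 in sham and 4.54 on each of the antagonist arrays, the same value as sham replicate 2. The difference for Lif of 0.05 ± 0.04 therefore came from sham replicate 1 alone, and without that array it was 0. Osm and Lif lay not far above the array medians of 3.92 to 3.95. Whether the arrays register a change at that level was not tested.

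Il6 (Entrez Gene 16193), the founding cytokine of the family, was high in a single heart. It measured 5.85 and 6.14 in sham and 6.10, 7.14 and 5.76 with the antagonist. Antagonist replicate 2 exceeded the mean of the other 4 arrays by 1.17, while antagonist replicate 3 was the lowest of all arrays, so the groups overlapped. The means were 5.998 ± 0.207 (SD, n = 2) and 6.33 ± 0.72 (SD, n = 3), a log2 difference of 0.34 ± 0.49 (SE), which is within the spread between replicates. Without antagonist replicate 2 the sign turned, to -0.065. On that same array 7 adipocyte markers exceeded the other arrays by a median of 1.75 and 10 atrial markers by 1.65; their part in the Il6 value was not tested.

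The receptor genes Il6st, Lifr and Il6ra had smaller differences than Osmr. Il6st (Entrez Gene 16195), the gp130 chain shared by all these ligands, measured 9.34 and 9.49 in sham and 9.50, 9.62 and 9.50 with the antagonist. Its groups were separated by only 0.01, and the log2 difference was 0.13 ± 0.07 (SE), or 0.05 without sham replicate 1. Lifr (Entrez Gene 16880), the LIF receptor chain, measured 8.05 and 8.26 in sham and 8.28, 8.36 and 8.44 with the antagonist. Its groups lay 0.02 apart, and the difference of 0.20 ± 0.09 became 0.10 without sham replicate 1. Il6ra (Entrez Gene 16194), the chain that binds interleukin-6, measured 5.75 and 5.91 in sham and 5.91, 5.91 and 6.19 with the antagonist. Only antagonist replicate 3 stood above sham replicate 2, the groups overlapped, and the difference of 0.17 ± 0.12 was 0.08 without antagonist replicate 3.

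Stat3 (Entrez Gene 20848), the transcription factor gene of the pathway, measured 8.43 and 8.98 in sham and 9.12, 9.11 and 8.95 with the antagonist. Sham replicate 1 was low and sham replicate 2 lay within the range of the antagonist arrays, so the groups overlapped. The means of 8.71 ± 0.39 (SD, n = 2) and 9.06 ± 0.09 (SD, n = 3) differed by 0.35 ± 0.19 (SE) on the log2 scale. That difference was 0.08 without sham replicate 1 and 0.63 without sham replicate 2, so it turned on which sham heart was compared.

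Socs3 (Entrez Gene 12702), the feedback inhibitor, was read by 2 probes. The brighter probe gave 6.04 and 5.94 in sham and 6.04, 6.18 and 6.04 with the antagonist. Sham replicate 1 and antagonist replicates 1 and 3 had the same value, the groups met at it, and the difference was 0.10 ± 0.06 (SE). The second probe gave 3.80 and 3.78 in sham and 4.03, 4.21 and 3.94 with the antagonist, near the array medians of 3.92 to 3.95. On that probe every antagonist array lay above both sham arrays, with means of 3.79 ± 0.01 (SD, n = 2) and 4.06 ± 0.14 (SD, n = 3) and a difference of 0.27. The probes thus differed in size and in whether the groups separated, and both were highest on antagonist replicate 2.

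**Figure D2:**
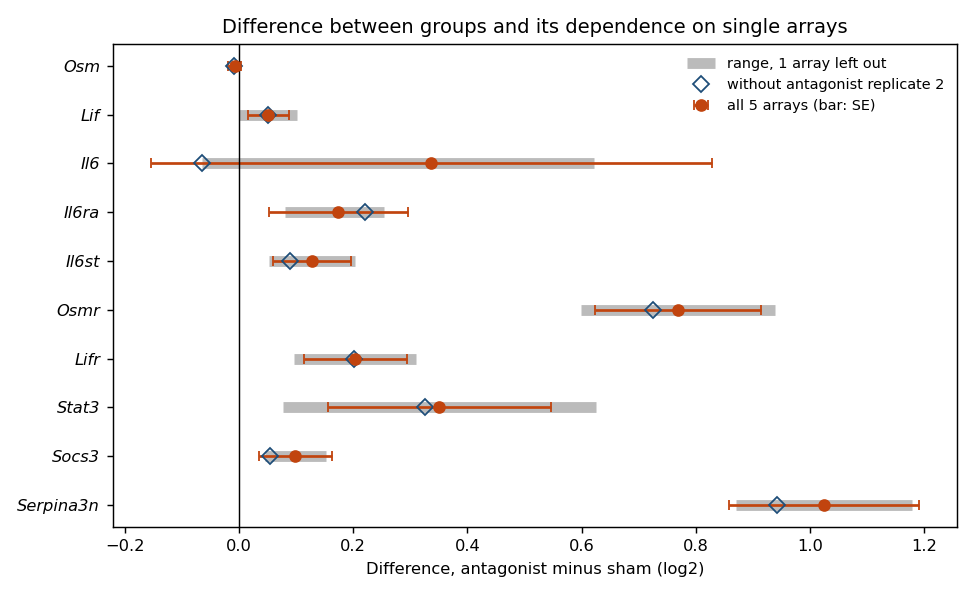
Log2 difference of antagonist minus sham for the 10 genes. Orange points are the means over all 5 arrays with limma's SE, open diamonds leave out antagonist replicate 2, and grey bars span the values with each array left out in turn. Osmr (0.60 to 0.94) and Serpina3n (0.87 to 1.18) stay far above 0, while Il6 spans 0 and Stat3 reaches from 0.08 to 0.63.

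Over the 10 genes, 9 had a higher mean with the antagonist and 1 a lower mean, beside 47.7% of all tested genes with a higher mean. The groups did not overlap for 4 members (Osmr, Serpina3n, Il6st and Lifr), all with the antagonist above sham, and 6.19% of all tested genes had that arrangement. The median difference was 0.19, and 0 over all tested genes. Since the same contrast chose the members, nothing is read from these counts. Osmr and Serpina3n differed by at least 0.5, as did 0.713% of all tested genes, and no member was lower by that much (0.432% of all tested genes). Antagonist replicate 2 had the single highest value for 5 members (Osmr, Il6, Il6st, Socs3 and Serpina3n), and sham replicate 1 the single lowest for 5 (Il6ra, Il6st, Lif, Lifr and Stat3). Without antagonist replicate 2, 8 members had a higher mean and the median was 0.15. The difference in that setting was 0.73 (1.65-fold) for Osmr and 0.94 (1.92-fold) for Serpina3n. Without sham replicate 2, groups were apart for 7 members, with the antagonist above sham, as for 28.1% of all tested genes in that setting. Without sham replicate 1 the count was 5, beside 19.6% of all tested genes. It was 4 without antagonist replicate 1 (8.37%), 4 without antagonist replicate 2 (8.76%) and 5 without antagonist replicate 3 (9.25%). Many values of these arrays are exactly equal across hearts, and only 5 members (Osmr, Il6, Lifr, Stat3 and Serpina3n) had 5 different values. Small SEs of the others need not measure the spread between hearts.

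The members were also compared with Osmr in their course over the 5 arrays, as the root mean square distance between log2 profiles centred on their own means. Serpina3n lay at a distance of 0.13, the second nearest of all other tested genes, and the median over all tested genes was 0.40. Socs3, Stat3, Lifr, Il6st, Il6ra and Lif lay between 0.34 and 0.39, and Osm was at 0.40. Il6 lay at 0.49, farther than the median gene. The nearest gene outside the 10 was Ifi205, an interferon-inducible gene (0.07). Next came Lyve1, a hyaluronan receptor of lymphatic endothelium and resident macrophages (0.15), and Cd14, a coreceptor for bacterial lipopolysaccharide (0.15). Cdkn1a, which encodes the cell cycle inhibitor p21 (0.15), Mir680-2 (0.16) and Nfil3, a repressor of D-box clock genes (0.16), followed. Ifi205 measured 9.09 and 8.72 in sham and 9.80, 9.74 and 9.69 with the antagonist, with sham replicate 2 lowest as for Osmr. Cd14 measured 6.28 and 6.25 in sham and 6.92, 7.19 and 6.69 with the antagonist. The likeness rests on 5 arrays, and the members had been chosen with the contrast between these arrays known. Because the distance is not scaled, genes with a similar difference between the groups tend to lie near Osmr. All of the named nearest genes had the antagonist arrays above both sham arrays. Nearly constant genes such as Osm lie near the median distance. The distances describe profiles and say nothing of shared regulation.

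**Figure D3:**
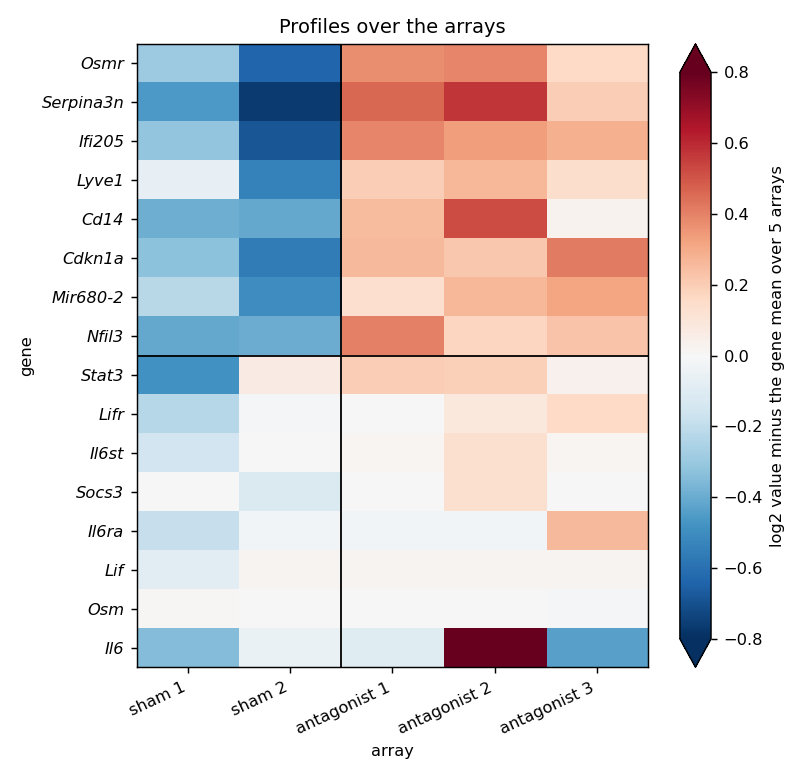
Log2 values of each gene minus the mean of that gene over the 5 arrays, by array, from blue (low) to red (high). Above the horizontal line stand Osmr, Serpina3n and the 6 genes nearest to Osmr. They lie below their own means on both sham arrays, Lyve1 only slightly on sham replicate 1 (-0.07). Below the line stand the other 8 members, among which Stat3 is low on sham replicate 1 and Il6 is high on antagonist replicate 2.

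Other genes of the pathway were compared in the same fit. Their lists were chosen with earlier results of these data known, so the counts are descriptions. Of 89 listed genes, 76 had a probe of their own and 62 were tested. With limma 0 of the 62 passed an adjusted p of 0.05, the smallest adjusted p being 0.62, as 0 of all 15294 genes did (0%). At an unadjusted p under 0.05 there were 5, 4 with a higher and 1 with a lower mean in the antagonist hearts; this is 8.06%, beside 4.6% of all tested genes (2.23% higher and 2.37% lower). The antagonist arrays lay above both sham arrays for 10 genes (16.1%, beside the 6.19% given above). For 1 gene they lay below both (6.33% of all tested genes). The 10 include Saa3, whose sham mean of 3.33 lay below the level filter of 3.42. With a single sham array the count above was 19 without sham replicate 1 (30.6%, beside 19.6% of all tested genes) and 29 without sham replicate 2 (46.8%, beside 28.1%). Below, values of single genes outside the 10 members are log2 values or log2 differences without a call.

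The other ligand genes had lower means with the antagonist in 4 of 5 tested, with a median difference of -0.13. Il11, whose product acts through gp130 with its own receptor, measured 3.96 and 4.06 in sham and 3.83, 3.84 and 3.69 with the antagonist. All antagonist arrays lay below both sham arrays, a difference of -0.23 ± 0.07 (SE; limma adjusted p = 0.64), at a level near the array medians of 3.92 to 3.95. Ctf1, which encodes cardiotrophin 1, a ligand of gp130 and the LIF receptor, differed by -0.17 ± 0.08, Clcf1 by 0.10 ± 0.09 and Ebi3 by -0.13 ± 0.19, each with overlapping groups. Of the other receptor genes, Il27ra (0.31 ± 0.19) and Cntfr (0.17 ± 0.18) were highest on antagonist replicate 2 with overlapping groups, and Il31ra had the same value on all arrays.

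Among 11 tested kinase, STAT and adaptor genes the median difference was 0.01, with 6 higher and 5 lower. The Janus kinase genes Jak1 (0.06 ± 0.05), Jak2 (0.01 ± 0.07) and Tyk2 (-0.01 ± 0.02) had overlapping groups. Stat2, a STAT of the interferon pathway, measured 5.55 and 5.96 in sham and 6.39, 6.16 and 6.14 with the antagonist. Its groups did not overlap, and the difference was 0.48 ± 0.17 (SE; limma adjusted p = 0.64), or 0.27 without sham replicate 1. Ptpn11, which encodes the phosphatase SHP2 that binds gp130, measured 8.53 and 8.78 in sham and 9.01, 8.82 and 8.95 with the antagonist, a difference of 0.28 ± 0.11 that was 0.15 without sham replicate 1. Shc1 (-0.09 ± 0.06) and Gab1 (-0.04 ± 0.03), adaptors of the same receptors, had overlapping groups.

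The inhibitors of the pathway had a median difference of 0.0045 over 13 tested genes, with 7 higher and 5 lower means, and no gene had its groups apart. Socs1, the closest inhibitor of Janus kinases to Socs3, differed by 0.07 ± 0.04 (SE), and Cish, a target of STAT5, by -0.15 ± 0.12. Pias4 (-0.09 ± 0.06) and the phosphatase gene Ptpn1 (0.15 ± 0.12) completed the 4 of smallest p.

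Genes known to respond to STAT3 had a higher mean with the antagonist in 25 of 30 tested (beside 47.7% of all tested genes) and a lower mean in 5, with a median difference of 0.19, beside a median of 0 over all tested genes. The antagonist arrays lay above both sham arrays for 8 of the 30 (26.7%, beside 6.19% of all tested genes): Nfil3, Il4ra, Sbno2, Bcl2l1, Pim3, Saa3, Lrg1 and Icam1, of which the last 4 are named because of their values. None passed with limma (smallest adjusted p = 0.62), and 3 were under an unadjusted p of 0.05. Saa3 had a sham mean of 3.33, below the level filter of 3.42, and an antagonist mean of 3.60. It was therefore tested only because of its antagonist values, and its place among the 8 carries no weight. Since the list was chosen with earlier results of these data known, nothing is read from its counts. Without antagonist replicate 2 the median was 0.08, and 22 of 30 had a higher mean, beside 45.8% of all tested genes in that setting. In that setting 9 had both groups apart (30%, beside 8.76% of all tested genes). Without sham replicate 1 the median was 0.10, and 20 of 30 had a higher mean, beside 43.9% of all tested genes. There 11 had both groups apart (36.7%, beside 19.6%). The count of genes with both groups apart was 13 without antagonist replicate 3 (43.3%, beside 9.25%) and 19 without sham replicate 2 (63.3%, beside 28.1%).

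Nfil3 measured 5.90 and 5.91 in sham and 6.71, 6.48 and 6.54 with the antagonist, a difference of 0.67 ± 0.08 (SE; limma adjusted p = 0.62). It is also a known direct target of REV-ERB alpha. Il4ra, the receptor chain for interleukins 4 and 13, measured 5.56 and 5.99 in sham and 6.49, 6.32 and 6.41 with the antagonist. Its difference was 0.63 ± 0.16 (limma adjusted p = 0.64), and 0.42 without sham replicate 1. Sbno2, a transcriptional coregulator induced by interleukin-10 and STAT3, measured 4.93 and 5.09 in sham and 5.41, 5.72 and 5.41 with the antagonist, a difference of 0.50 ± 0.13. Bcl2l1, which encodes the survival protein BCL-XL, differed by 0.32 ± 0.13. Its antagonist arrays lay at 5.84 to 6.13 and its sham arrays at 5.53 and 5.72.

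Several genes of this list were much higher on antagonist replicate 2 than on the other arrays. Icam1, an adhesion molecule of endothelium that NF-kB also induces, measured 6.13 and 6.78 in sham. With the antagonist it measured 7.43, 9.50 and 6.82, so that its difference of 1.47 ± 0.97 (SE) was 0.68 without antagonist replicate 2. Hp, the gene of the plasma protein haptoglobin, measured 8.19 on antagonist replicate 2 and 4.28 to 4.95 on the other 4 arrays. Its difference was 1.35 ± 1.36, and 0.20 without that array. Bcl3 (6.52 on antagonist replicate 2, against 5.17 to 5.81) and Ccl2 (7.97, against 6.51 to 7.12) were also highest there. Hamp measured 7.95 on antagonist replicate 2, 4.36 on antagonist replicate 3 and 6.02 to 6.17 on the other arrays. Its difference of 0.07 ± 1.21 (SE) became -0.83 without antagonist replicate 2. The groups of Hp, Bcl3, Ccl2 and Hamp overlapped. The immediate-early targets Fos (0.01 ± 0.10), Junb (0.03 ± 0.22) and Myc (0.07 ± 0.15) had overlapping groups too, as did Mcl1 (-0.03 ± 0.08). Icam1, Hp, Bcl3, Ccl2, Hamp, Fos, Junb, Myc and Mcl1 were picked for this account after their values were seen.

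**Figure D4:**
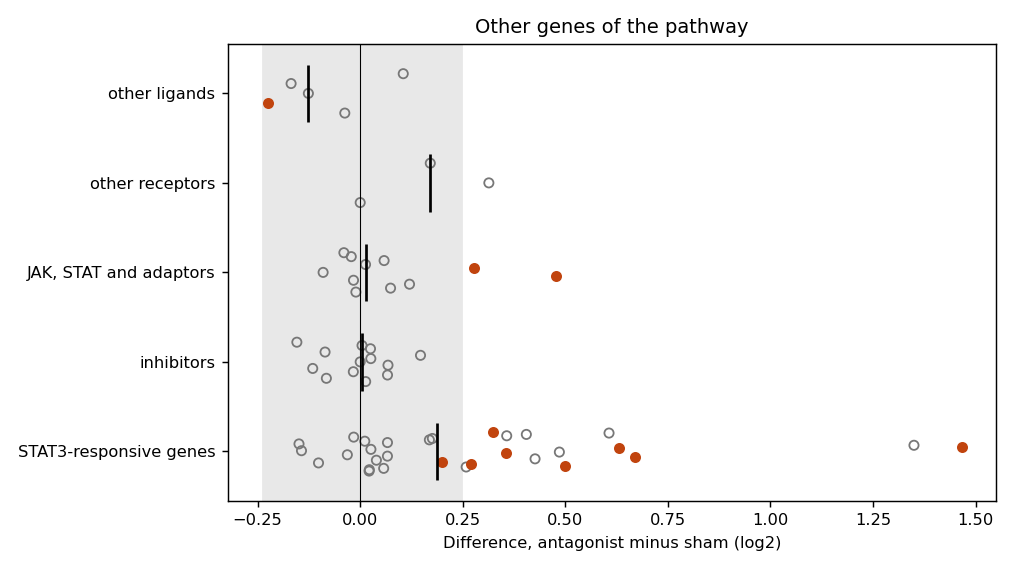
Log2 difference of antagonist minus sham for 62 other genes of the pathway, by role, each point a gene and each black bar the median of a list. Filled orange points are genes whose groups do not overlap, and the grey band holds the 5th to 95th percentile of all tested genes (-0.24 to 0.25). The STAT3-responsive genes spread furthest to the right, and the inhibitors lie close to 0.

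RNA of whole hearts cannot tell fewer cells of a type from less RNA per cell, and markers of the cell types that carry Osmr or make its ligand are set beside it here. All 12 markers of heart muscle cells passed the level filter, and they summed to 139.0 and 140.1 in sham and to 139.6 to 140.1 with the antagonist (sums of log2 values over the genes of a list). Endothelial markers summed to 77.3 and 79.0 in sham and to 78.1 to 78.4 with the antagonist (10 genes). Fibroblast markers had lower means with the antagonist in 7 of 10, by a median of -0.13, and summed to 79.8 and 83.1 in sham and to 79.2 to 81.6 with the antagonist. The sums of the muscle, endothelial and fibroblast lists overlapped between the groups, and the part of these cells in the Osmr value was not tested.

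Macrophage and monocyte markers had higher means with the antagonist in 9 of 13 tested genes (beside 47.7% of all tested genes), by a median of 0.09. They summed to 91.5 and 91.9 in sham and to 92.4 to 94.7 with the antagonist (14 genes), so these sums did not overlap. Cd14, the marker with the largest difference, is part of these sums and weighs on their separation. Sums without Cd14 were not compared. Of the 13, 5 had the antagonist arrays above both sham arrays, beside 6.19% of all tested genes. They were Cd14 (0.67 ± 0.17, SE), C1qa (0.38 ± 0.18), Fcgr1 (0.34 ± 0.06), Itgam (0.31 ± 0.06) and Ctss (0.26 ± 0.06). Cd68 (-0.26 ± 0.17) had them below, beside 6.33% of all tested genes. The others, Csf1r (-0.09 ± 0.22), Mrc1, C1qb, C1qc, Adgre1, Lyz2 and Cd163, had overlapping groups. The part of these cells in the Osmr and Serpina3n values was not tested. Of 10 neutrophil markers, 6 (S100a8, S100a9, Ly6g, Camp, Ltf and Retnlg) lay below the level filter, and the sums of the list were 30.5 and 31.4 in sham and 31.0 to 31.7 with the antagonist. Antagonist replicate 2 alone carried high atrial markers (a sum of 82.9 over 10 genes, against 62.8 to 66.2 on the other 4 arrays), adipocyte markers (53.6 over 8 genes, against 40.5 to 42.1) and mesothelial markers (49.8 over 10 genes, against 42.5 to 43.3). Without that array the differences of Osmr and Serpina3n were 0.73 and 0.94, as given above.

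**Figure D5:**
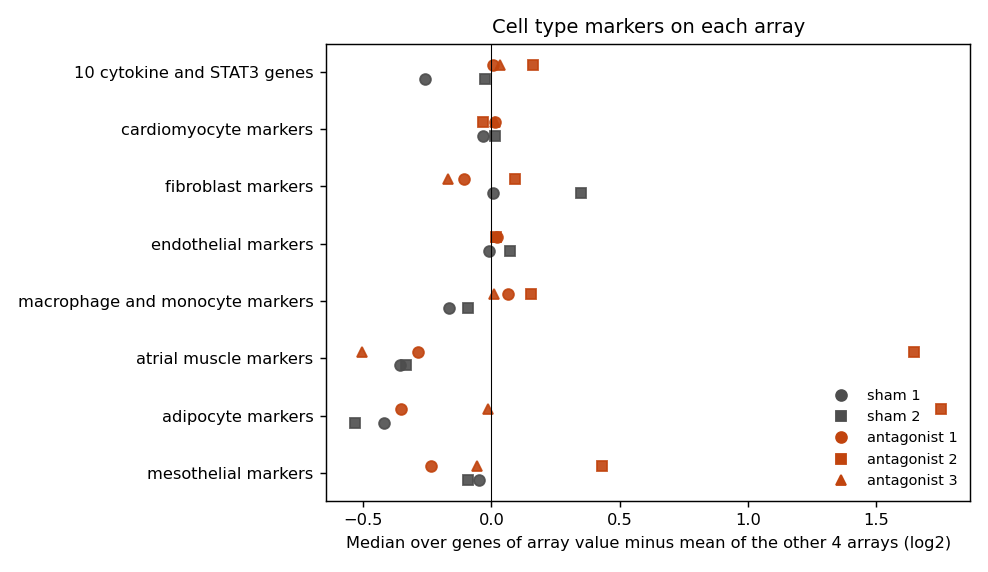
Median over the genes of a list of the value on 1 array minus the mean of the other 4 arrays (log2), for the 10 members and 7 lists of cell type markers. Squares in orange (antagonist replicate 2) stand far to the right for atrial (1.65) and adipocyte (1.75) markers, and the grey circle (sham replicate 1) lies lowest for the 10 members (-0.26).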

How the data were processed

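Total RNA of 5 hearts was hybridised to Affymetrix whole-transcript arrays from 300 ng, per the labels' protocols. The deposited values are log2 expression values made by the authors with RMA (background correction, quantile normalization, median polish), per the submitters' processing notes; neither its version nor the probe library is given there. Array medians were 3.92 to 3.95, and precision is limited by having 5 arrays. Scanner files were not used here.

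Of 41345 probes, 23521 had 1 gene symbol in the platform annotation, 1814 had several and 16010 were not listed. The brightest probe per symbol was kept, and genes were tested if their mean reached 3.42, the 40th percentile over all probes. The test was limma's moderated test (version 3.58.1, R 4.3.3; two-sided, no covariates, Benjamini-Hochberg over 15294 genes, threshold 0.05), and the script was tested on simulated data. Folds are powers of 2 of the log2 differences. Of tested genes, 73.9% repeat a value on at least 2 of the 5 arrays.

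The members, lists and tests were chosen with earlier results of these data known. Named genes are the 10 members, up to 4 tested genes of smallest limma p per pathway list, and the 6 genes nearest to Osmr, predicted genes left out; others are marked where they appear. Alternatives covered the level filter, a second quantile normalization, median centring, the mean of all probes, robust or trended eBayes, weighted arrays, a block for the replicate number, and omission of single arrays. The labels call the arrays biological replicates.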

Additional observations from a re-analysis of the deposited data

How the results depend on the processing

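The log2 difference of Osmr lay between 0.60 (without sham replicate 2) and 0.94 (without sham replicate 1) with single arrays left out. It lay between 0.76 and 0.78 with a second quantile normalization, median centring or array weights. The deposited values were already quantile normalized, which leaves renormalization and centring little room to move it. Osmr had 1 probe, so the mean of all probes could not change it. Il6 lay between -0.065, reversed, without antagonist replicate 2 and 0.62 without antagonist replicate 3; the cause was not tested. Genes called over the whole table with limma numbered 0 under each alternative that kept all arrays, and from 0 to 2058 with single arrays left out: 1319 without sham replicate 1 and 2058 without sham replicate 2, where a lone sham array is assumed to vary like the antagonist arrays. Of those genes 92.6% and 78.6% had tied antagonist values, beside 53.1% of the genes tested. Pathway genes called ranged from 0 to 8: 4 without sham replicate 1 (Il27, Mcl1, Saa3 and Tnc) and 8 without sham replicate 2. Of these, Il27 (-0.13 and 0.06), Mcl1 (-0.14 and 0.08) and Tnc (0.17 and -0.13) were called in both settings with opposite signs. Both groups carry replicate numbers 1 and 2, but the labels tie the numbers to no shared animal or day, and deviations of same-numbered arrays had a correlation of -0.04 across genes. With the replicate block Osmr differed by 0.84, 0 genes were called and 0 pathway genes were called; these member differences equal those without antagonist replicate 3, which has no sham partner. Averaging both Socs3 probes gave 0.18. With single arrays left out, called genes were counted among 15294 tested genes and called pathway genes among 62. In both settings with a lone sham array the called share was lower among the pathway genes than over the whole table. Counts without single arrays were chosen after seeing the data.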
